A study of Homo sapiens with 6 samples.

Results

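The genes described here make and load MHC class I molecules. The 9 members were chosen as a list of symbols: the heavy chains HLA-B, HLA-C and HLA-E, the light chain gene B2M, the peptide transporter genes TAP1 and TAP2, the loading factor gene TAPBP, and the peptide trimming enzyme genes ERAP1 and ERAP2. Of these 9 members, 8 had a row among the 30051 genes of the count table, and 5 passed the filter on low counts and entered the test with 13341 genes in all. RNA was sequenced from MDA-MB-231, an established line from a human triple-negative breast cancer, of the claudin-low type. The control group was 3 libraries of cells given DMSO, the solvent, for 24 h, labelled replicates 1, 2 and 3. The treated group was 3 libraries of cells given 50 nM panobinostat, an inhibitor of histone deacetylases, for 24 h, labelled replicates 1, 2 and 4. Both groups were the same line in serum-containing medium, with no other agent or genetic change named in the labels, so the data describe 1 line in culture without immune cells or added interferon. The p-values measure the spread between these libraries, and the series' design text says that each condition was repeated independently.

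MHC class I molecules display short peptides from inside the cell to CD8+ T cells and natural killer cells. The proteasome cuts proteins into peptides, the TAP transporter pumps them into the endoplasmic reticulum, the aminopeptidases ERAP1 and ERAP2 trim them there, and a loading complex built around tapasin places them in the groove of a heavy chain bound to beta-2 microglobulin. Many of these genes are known targets of interferon signalling and of the coactivator NLRC5, and tumour cells often carry low levels of them.

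Total counts were 6514568 to 11996519 in the DMSO libraries and 5389638 to 15106148 in the panobinostat libraries. The median correlation of a library with the others of its group, across genes on a log scale, was 0.994 for each DMSO library, 0.985 and 0.984 for panobinostat replicates 1 and 2, and 0.975 for panobinostat replicate 4, which stood apart. Levels are CPM, counts scaled to a TMM-adjusted total of 1000000 in each library. The 6 mesenchymal markers of the line (VIM, CD44, FN1, AXL, ZEB1 and SPARC) summed to 4880 to 4950 CPM in DMSO and 4940 to 5050 CPM in panobinostat, with SPARC at 2.17 CPM or less in each library. VIM carried most of that sum (2570 ± 9.13 CPM in DMSO and 2870 ± 123 CPM in panobinostat), and the list did not move together: VIM (log2 fold change 0.16 ± 0.05) and FN1 (0.31 ± 0.07) rose, ZEB1 (-0.91 ± 0.15) and AXL (-0.34 ± 0.08) fell, and CD44 (0.09 ± 0.05) was not called by edgeR. The 8 luminal markers summed to 44.6 to 49 CPM in DMSO and 34.7 to 40.3 CPM in panobinostat. EPCAM (18.5 ± 1.66 CPM), CLDN7 (15.5 ± 0.503 CPM) and GATA3 (11.9 ± 1 CPM) carried most of the DMSO sum. The epithelial cadherin gene CDH1 had 1 count in all. GATA3 (log2 fold change -1.19 ± 0.39) and EPCAM (-0.77 ± 0.17) fell, CLDN4 (1.64 ± 0.29) rose, and CLDN7 (0.01 ± 0.12) was not called by edgeR. The others of this list were not tested. Of 10 leukocyte markers 8 had a row, and they summed to 3.1 to 4.7 CPM in DMSO and 4.23 to 5.52 CPM in panobinostat, with 2 counts of PTPRC in all and no row for CD3E. Of that list CD14 rose, from 0.523 ± 0.135 to 2.46 ± 0.67 CPM (log2 fold change 2.21 ± 0.36, edgeR adjusted p = 0.00226). CSF1R, the only other tested gene of the list, carried most of the DMSO sum. It had 3.14 ± 0.913 CPM in DMSO and 2.06 ± 1.13 CPM in panobinostat and was not called (-0.61 ± 0.38). Without panobinostat replicate 4 its log2 fold change was -0.99 (edgeR adjusted p = 0.00461). The part of these shifts in the values of the members was not tested. Group levels are mean ± SD with n = 3, and log2 fold changes are panobinostat over DMSO ± SE. In bulk RNA, fewer cells that express a gene and less of its RNA per cell cannot be told apart.

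The interferon-stimulated response element (ISRE), the sequence bound by IRF and STAT complexes, links these genes in textbook accounts, so its matches are shown here before the values. The pattern GAAA, any 2 bases, GAAA was searched on both strands of RefSeq promoter windows on GRCh38.p14, each reaching from 250 bases before to 50 bases after a transcription start. The 8 members with a window (HLA-E was not matched) had 11 windows in all. Of these windows 6 held the pattern, each of a different member, beside 3.57% of the 35116 windows of all genes. ERAP2 (plus strand, chr5:96876460-96876489), ERAP1 (minus strand, chr5:96807924-96807953) and B2M (plus strand, chr15:44711369-44711398) are the well measured members. TAP1 (minus strand, chr6:32853813-32853842) had no row, and TAP2 (minus strand, chr6:32838778-32838807) and TAPBP (minus strand, chr6:33314079-33314108) had 1 count each. Each sequence reads 5′ to 3′ along the gene with the match in capitals, which is the reverse complement of the pattern in ERAP1 and TAP1:
ERAP2: tcttagaacaGAAAGTGAAAgcaaaagtaa
ERAP1: cgggctccacTTTCACTTTCggtcctgggg
B2M: ctaagaaaagGAAACTGAAAacgggaaagt
TAP1: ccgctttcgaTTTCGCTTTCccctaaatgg
TAP2: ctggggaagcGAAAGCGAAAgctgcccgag
TAPBP: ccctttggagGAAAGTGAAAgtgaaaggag
The match in ERAP2 begins 30 bases before the start and that in ERAP1 at base 3 after it. B2M, TAP1 and TAPBP each held a second match that overlapped the match shown. The 2 matches share a GAAA, or its reverse complement in TAP1, so they are not separate copies of the pattern. A match is a description of the letters and not a measured binding site.

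HLA-B and HLA-C held no match to this exact pattern in their windows. The search allowed no differing letter, so it would miss an ISRE that departs from the pattern. Matches to other control elements known from class I promoters could be read in both. The 250 bases before each start are shown for B2M (plus strand, chr15:44711267-44711516), HLA-B (minus strand, chr6:31357180-31357429) and HLA-C (minus strand, chr6:31272093-31272342), with capitals for matches on either strand to the ISRE, to ATTGG (the Y box core bound by NF-Y), to TGACG (the core bound by CREB and ATF1) and to GGGA, any 4 bases, CC (a kappa B element); adjoining matches run together in capitals:
B2M: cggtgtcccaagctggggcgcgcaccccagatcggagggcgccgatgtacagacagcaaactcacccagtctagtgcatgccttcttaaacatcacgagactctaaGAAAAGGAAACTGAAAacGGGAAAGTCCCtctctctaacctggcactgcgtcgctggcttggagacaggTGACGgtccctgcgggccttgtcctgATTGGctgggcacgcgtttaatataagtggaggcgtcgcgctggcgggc
HLA-B: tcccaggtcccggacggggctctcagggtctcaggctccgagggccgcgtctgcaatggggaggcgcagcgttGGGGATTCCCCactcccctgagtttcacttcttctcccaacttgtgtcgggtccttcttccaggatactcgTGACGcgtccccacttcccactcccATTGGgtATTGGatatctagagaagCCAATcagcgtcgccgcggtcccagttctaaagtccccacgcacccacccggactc
HLA-C: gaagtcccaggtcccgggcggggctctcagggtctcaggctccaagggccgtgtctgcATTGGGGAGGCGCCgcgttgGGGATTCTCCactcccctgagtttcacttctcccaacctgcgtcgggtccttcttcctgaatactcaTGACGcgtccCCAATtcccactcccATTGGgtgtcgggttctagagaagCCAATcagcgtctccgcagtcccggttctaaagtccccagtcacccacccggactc
The HLA-B and HLA-C stretches were identical at 226 of 254 aligned columns (89%). ATTGG occurred in 5 of the 11 windows of members and in 34.6% of all windows. TGACG occurred in 4 of the 11 and 24.6% of all, and the kappa B pattern in 6 of the 11 and 25.6% of all. Each of these shorter patterns is thus common. The letters GGGCGG, a GC box, occurred in 5 of the 11 windows, of 4 members, and in 45% of all windows. TTCNNNGAA, a STAT dimer element, occurred in 1 of the 11 (of TAP1) and in 7.66% of all.

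Of the 5 tested members, 0 rose and 2 fell at an adjusted p under 0.05 (edgeR's quasi-likelihood test with Benjamini-Hochberg adjustment), beside 58.9% of all tested genes called in either direction, 30.2% higher and 28.6% lower. ERAP2 and ERAP1 were the called members, and ERAP2 was the only 1 of the 5 both called and changed at least 2-fold, beside 15.5% of tested genes that were called and changed at least 2-fold in either direction. The groups did not overlap in 3 of the 5 tested members (B2M, ERAP1 and ERAP2), beside 69.0% of tested genes. Both the count of calls and the count of separate groups are small, and neither stands above its share over all tested genes. Without panobinostat replicate 4 the members again gave 0 rises and 2 falls, beside 74.6% of 13746 tested genes called.

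**Figure D1:**
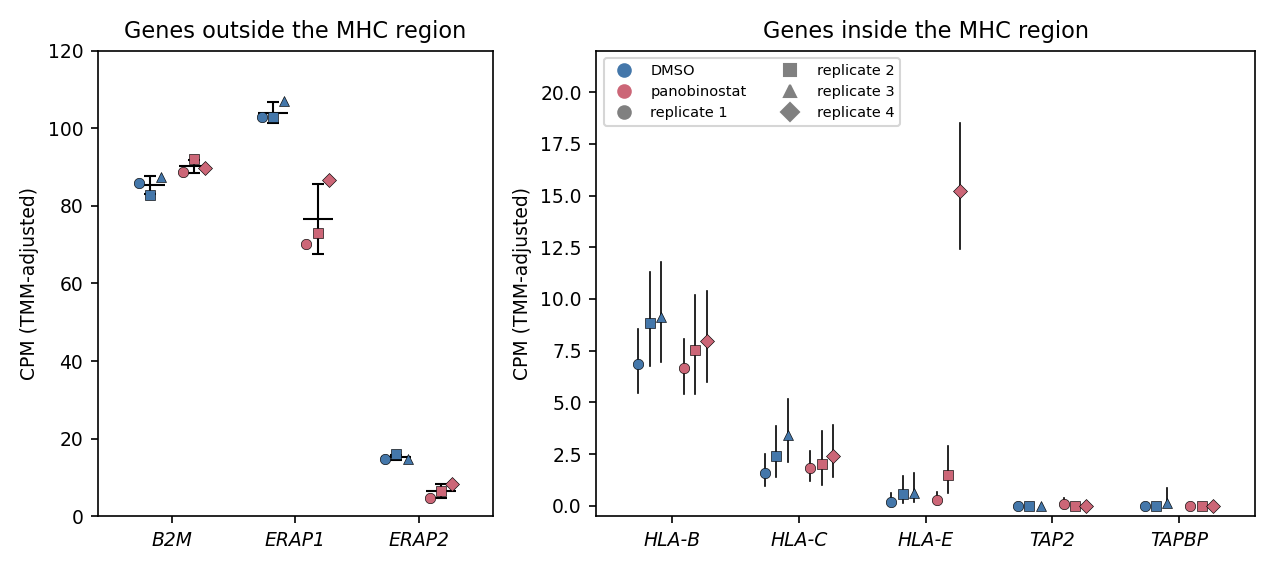
CPM of the members in each of the 6 libraries (blue DMSO, red panobinostat, marker shape for the replicate number). The left panel shows B2M, ERAP1 and ERAP2 with bars for the mean ± SD (n = 3), and the right panel the members encoded in the MHC region with 95% Poisson intervals of each library's count above 0; ERAP1 and ERAP2 lie lower in each panobinostat library, and HLA-E is high only in panobinostat replicate 4.

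The members encoded in the MHC lay in a stretch of chromosome 6 where almost no gene was well counted, which bears on every value given for them. Between GABBR1 and KIFC1 (GRCh38.p14, chr6:29602238-33409896, 3.81 Mb, bounds chosen after the values were seen) the RefSeq annotation holds 147 protein-coding genes. Of these, 55 (37.4%) had a row and 2 (1.36%) had a mean of at least 10 CPM over the 6 libraries. In the 5 Mb after this stretch 91.2% of 68 genes had a row and 52.9% reached 10 CPM, and on the other chromosomes the shares were 80.5% and 47.7% of 18925 genes. In the 5 Mb before it, 59.3% of 118 genes had a row and 25.4% reached 10 CPM. The median level of genes with a row was 0.136 CPM inside the stretch, 2.79 CPM in the 5 Mb before it, 41.6 CPM in the 5 Mb after it and 19.9 CPM on the other chromosomes. Counts were low here also for genes that nearly all cells use. Of 12 such genes, chosen after the values were seen, RPS18, a ribosomal protein gene, had no row, nor did FLOT1, LSM2 and PPP1R10. TUBB, a tubulin gene, had 2 counts in all. BAG6, a chaperone gene, had the highest total of the 12, at 184 counts and no more than 10.8 CPM in a library. How far the low values of the MHC-encoded members reflect the cells was not tested. B2M lies on chromosome 15 among 13 genes within 500 kb, of which 12 had a row and 5 reached 10 CPM in DMSO. ERAP1 and ERAP2 lie on chromosome 5 among 7 genes within 500 kb, of which 5 had a row and 4 reached 10 CPM in DMSO.

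**Figure D2:**
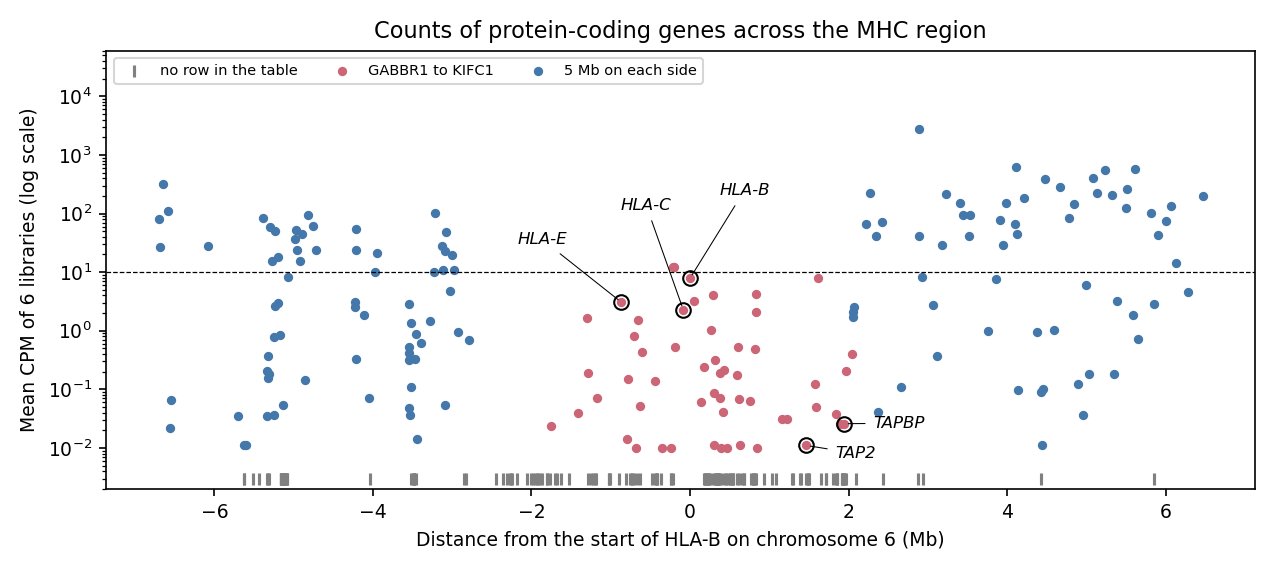
Mean CPM over the 6 libraries (log scale) of protein-coding genes against distance from the start of HLA-B in Mb, for the stretch from GABBR1 to KIFC1 (red) and 5 Mb on each side (blue). Circles mark members, grey ticks mark genes with no row, values under 0.01 CPM are drawn at 0.01, and the dashed line is 10 CPM, which 2 of 147 genes of the stretch reached.

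HLA-B, a classical heavy chain that presents peptides to CD8+ T cells (GRCh38.p14, chr6:31353875-31357179), had 81, 62 and 59 counts in DMSO replicates 1, 2 and 3 and 101, 41 and 53 counts in panobinostat replicates 1, 2 and 4. In CPM this was 6.86, 8.82 and 9.15 in DMSO and 6.64, 7.54 and 7.98 in panobinostat. Replicate 1 was the lowest of its group in both treatments, and the groups overlapped. The level was 8.28 ± 1.24 CPM in DMSO and 7.38 ± 0.681 CPM in panobinostat, a log2 fold change of -0.16 ± 0.17 with an edgeR adjusted p of 0.443. The 95% interval of that log2 fold change ran from -0.57 to 0.24. Of the 50-base stretches of HLA-B transcripts in GENCODE 29, 17.8% also occur in transcripts of other genes, mostly of AL671883.2, so counts of HLA-B are uncertain.

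HLA-C, the classical heavy chain that is also a main ligand of inhibitory receptors on natural killer cells (chr6:31268749-31272092), had 19, 17 and 22 counts in DMSO and 28, 11 and 16 in panobinostat. In CPM this was 1.61, 2.42 and 3.41 in DMSO and 1.84, 2.02 and 2.41 in panobinostat. All 3 panobinostat values lay within the DMSO range. The log2 fold change was -0.21 ± 0.32 with an edgeR adjusted p of 0.596 and a 95% interval from -0.95 to 0.53, and it was 0.05 without DMSO replicate 3. The interval is wide, at 11 to 28 counts per library. Of the 50-base stretches of HLA-C transcripts, 5.7% also occur in transcripts of other genes. The ratio of HLA-B to HLA-C counts within a library, which does not depend on scaling, was 4.26, 3.65 and 2.68 in DMSO and 3.61, 3.73 and 3.31 in panobinostat. The 2 groups overlapped in this ratio, with a log2 difference of 0.03 (two-sided exact permutation test, p = 0.9, where 3 against 3 libraries allow no p below 0.1).

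HLA-E, the nonclassical heavy chain that displays leader peptides of other class I molecules to NKG2 receptors (chr6:30489509-30494194), had 2, 4 and 4 counts in DMSO and 4, 8 and 101 counts in panobinostat replicates 1, 2 and 4. In CPM the DMSO values were 0.169, 0.569 and 0.621 and the panobinostat values 0.263, 1.47 and 15.2. Panobinostat replicate 4 alone was high, with a 95% Poisson interval from 12.4 to 18.5 CPM, and panobinostat replicate 1 lay within the DMSO range. The gene did not pass the filter on low counts and was not tested. The authors' deposited table, whose summed counts include further libraries, gives HLA-E a log2 fold change of 4.01 ± 1.71 with an adjusted p of 0.0479. That value may not rest on these 6 libraries alone, and of their 123 counts panobinostat replicate 4 supplies 101. A pattern of this kind, at least 20 counts in a library and at least 5 times the next, was met by 3 of the 12 genes of the stretch with a library of 20 counts or more (25%), and by 13 of 13872 genes elsewhere (0.0937%). The other genes of the 3 were ZNRD1, with 107 counts in DMSO replicate 1 and at most 3 in each other library, and GPSM3, with 60 counts in panobinostat replicate 4 and at most 12 in each other library. The high library was DMSO replicate 1 for ZNRD1 and panobinostat replicate 4 for both HLA-E and GPSM3. This rule was chosen after the values were seen, those of HLA-E among them, and the cause of such counts was not tested.

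B2M, the light chain that every class I heavy chain needs to fold and reach the surface (chr15:44711517-44718145), had 1012, 582 and 563 counts in DMSO and 1349, 501 and 597 in panobinostat. This gave 85.8, 82.8 and 87.4 CPM in DMSO and 88.7, 92.1 and 89.8 CPM in panobinostat. All 3 panobinostat values lay just above the highest DMSO value. The level was 85.3 ± 2.29 CPM in DMSO and 90.2 ± 1.73 CPM in panobinostat, a log2 fold change of 0.08 ± 0.07 with an edgeR adjusted p of 0.321. Its 95% interval ran from -0.07 to 0.23, so the measured change was small and did not pass the test. None of the 50-base stretches of its transcripts occur in other genes. The summed counts of HLA-B and HLA-C over those of B2M gave ratios of 0.0988, 0.136 and 0.144 in DMSO, against 0.0956, 0.104 and 0.116 in panobinostat. These ratios overlapped between the groups (log2 difference -0.25, two-sided exact permutation test, p = 0.3), a sum without HLA-E that was chosen after the data were seen. With HLA-E added to the sum the log2 difference was 0.21 (exact permutation test, p = 0.9), and -0.25 without panobinostat replicate 4.

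The transporter and loading genes of the MHC could not be assessed. TAP1 (chr6:32845209-32853704), which forms the peptide transporter with TAP2, had no row. TAP2 (chr6:32821831-32838739) had 1 count, in panobinostat replicate 1, and TAPBP (chr6:33299694-33314078), which encodes tapasin, had 1 count, in DMSO replicate 3. The other libraries had 0 counts of each, which allows up to 0.197 to 0.551 CPM, depending on the library (3 counts, for counting error only). A change of these genes was not detectable in these counts. The limits in CPM do not cover the low counts of the whole MHC stretch described above.

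ERAP1, the aminopeptidase that trims longer precursors to the length that class I grooves hold (minus strand, chr5:96760813-96935854), had 1211, 722 and 692 counts in DMSO and 1066, 397 and 577 in panobinostat. This gave 103, 103 and 107 CPM in DMSO and 70.1, 73 and 86.8 CPM in panobinostat. Every panobinostat library lay below every DMSO library, and replicate 4 was the nearest of them to the controls. The level fell from 104 ± 2.7 to 76.6 ± 8.96 CPM, a log2 fold change of -0.45 ± 0.09 (fold 0.734, edgeR adjusted p = 0.00515). The 95% interval of the log2 fold change ran from -0.66 to -0.23, and without panobinostat replicate 4 the value was -0.56.

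ERAP2, the related aminopeptidase with a different preference for the end residue (plus strand, chr5:96875984-96919716), had 175, 112 and 95 counts in DMSO and 71, 35 and 55 in panobinostat. Scaled, this was 14.8, 15.9 and 14.7 CPM in DMSO and 4.67, 6.43 and 8.28 CPM in panobinostat. The groups were well apart, and replicate 4 was again the panobinostat library nearest to DMSO. The level fell from 15.2 ± 0.669 to 6.46 ± 1.81 CPM, a log2 fold change of -1.28 ± 0.21 (fold 0.411, edgeR adjusted p = 0.00228). The 95% interval ran from -1.76 to -0.81, and the log2 fold change was -1.55 without panobinostat replicate 4. The authors' deposited table gives -1.17 for ERAP2 (adjusted p = 2.02e-05) and -0.42 for ERAP1 (adjusted p = 8.37e-05). These values may also rest on libraries beyond the 6 used here, as the summed counts of that table do.

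ERAP1 and ERAP2 overlap on opposite strands in the RefSeq annotation, and whether reads were counted by strand is not given in the sources at hand. Their exons in GENCODE 29 share 0 bases, and 5.1% of ERAP1 and 0.249% of ERAP2 50-base stretches occur in transcripts of other genes. The ERAP1 to ERAP2 count ratio within a library was 6.92, 6.45 and 7.28 in DMSO and 15, 11.3 and 10.5 in panobinostat. The ratio was higher in each of the 3 panobinostat libraries than in any DMSO library, so ERAP2, the lower of the pair in every library, fell further than ERAP1. The log2 difference was 0.82, or 1.76-fold, with the smallest p that the two-sided exact permutation test can give (0.1). LNPEP, the third aminopeptidase gene of this cluster, which trims peptides in endosomes, had 94.8 ± 5.3 CPM in DMSO and 84.2 ± 2.58 CPM in panobinostat. Its log2 fold change was -0.17 ± 0.07 (edgeR adjusted p = 0.0745), and -0.2 without panobinostat replicate 4 (adjusted p = 0.0023).

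**Figure D3:**
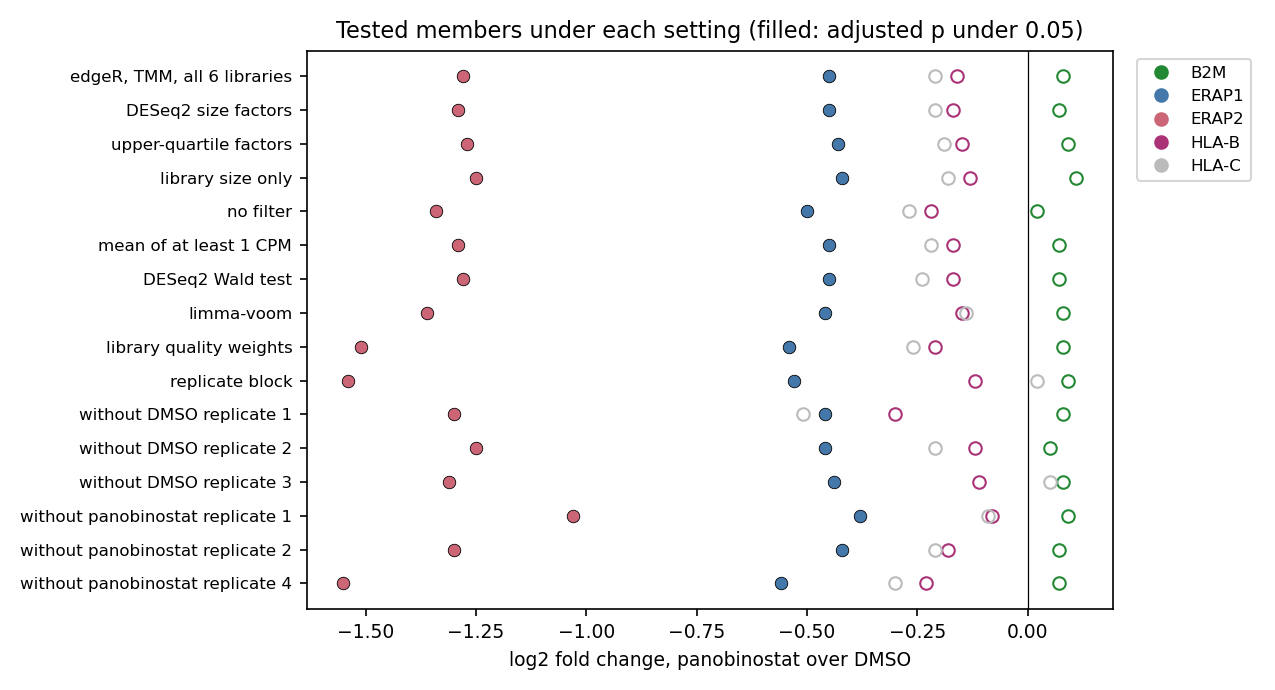
Log2 fold change, panobinostat over DMSO, of the 5 tested members under each scaling, filter and test, with a replicate block, and with each library left out; filled points have an adjusted p under 0.05. ERAP1 and ERAP2 are filled and below 0 throughout, ERAP2 between -1.03 and -1.55, and HLA-B, HLA-C and B2M are open throughout.

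Across members, levels were compared per kilobase of exon (CPM per kb, GENCODE 29 exon union). In DMSO the order was B2M at 14, ERAP1 at 13.1, HLA-B at 2.71, ERAP2 at 2.04, HLA-C at 0.99 and HLA-E at 0.152 CPM per kb, with TAPBP at 0.0102 and TAP2 at 0 CPM per kb. B2M (13.6 to 14.4) and ERAP1 (12.9 to 13.5) were close, and so were HLA-B (2.25 to 3) and ERAP2 (1.99 to 2.15), though neither pair overlapped. In panobinostat B2M stood at 14.8 and ERAP1 at 9.64 CPM per kb, HLA-B at 2.42 and ERAP2 at 0.87, and ERAP2 (0.629 to 1.12) then overlapped HLA-C (0.734 to 0.96). The positions of the heavy chains in this order carry the limit on MHC-encoded genes given above. For ERAP2, the tested member with the largest change, the genes with the most similar log2 CPM over the 6 libraries were URI1 (Pearson r = 0.9984), FUCA2 (r = 0.9984) and CFL2 (r = 0.9976). These are descriptions across 6 libraries of 2 treatments, and 1895 of 9787 genes compared had r over 0.95.

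Outside the 9 members, 86 genes of the pathway in 9 lists were read from the same fit. Of these, 69 were tested, 15 rose and 23 fell, beside 30.2% and 28.6% of all 13341 tested genes, so neither count is read as particular to the pathway. The median log2 fold change was -0.1 beside 0 over all tested genes. Without panobinostat replicate 4 the counts were 23 higher and 31 lower, beside 74.6% of tested genes called in either direction. Without DMSO replicate 1 they were 12 and 14, and calls over all tested genes also fell in both directions.

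**Figure D4:**
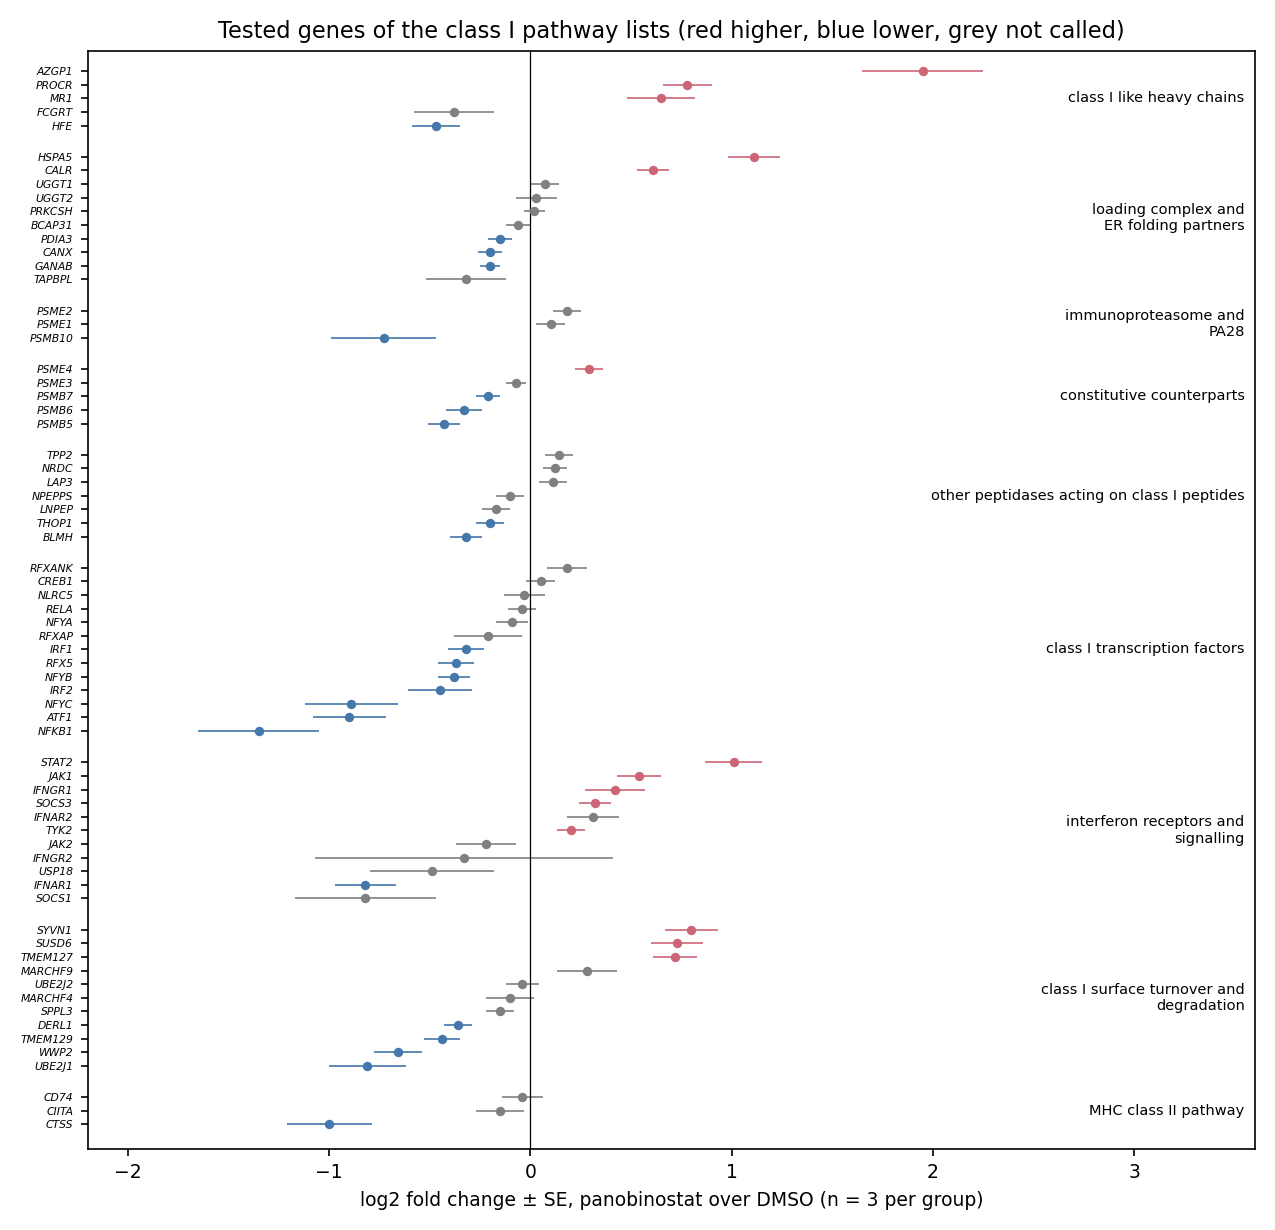
Log2 fold change ± SE (panobinostat over DMSO, n = 3 per group) of 68 of the 69 tested genes of the 9 pathway lists, with red for genes called higher, blue for lower and grey for not called. AZGP1 has the highest value, 1.95, and NFKB1 the lowest, -1.35.

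Class I like heavy chains encoded outside the MHC went in both directions. Of 5 tested, 3 rose and 1 fell, beside 30.2% and 28.6% of all tested genes. AZGP1, a secreted class I like protein, rose from 1.67 ± 0.303 to 6.2 ± 1.88 CPM (log2 fold change 1.95 ± 0.3, edgeR adjusted p = 0.00193). PROCR, the endothelial protein C receptor, rose with a log2 fold change of 0.78 ± 0.12. MR1, which presents vitamin B metabolites to MAIT cells, rose by 0.65 ± 0.17 on the log2 scale, with an edgeR adjusted p of 0.0502 without panobinostat replicate 1. HFE, which takes part in iron control and pairs with B2M, fell with a log2 fold change of -0.47 ± 0.12, and had an edgeR adjusted p of 0.0509 without DMSO replicate 1. FCGRT, the heavy chain of the neonatal Fc receptor, was not called (-0.38 ± 0.2), and was called lower without panobinostat replicate 4 (-0.57, edgeR adjusted p = 0.00456). CD1D was not tested, and HLA-F and HLA-G had no row.

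Among the 10 chaperones and folding partners of the loading complex, 2 rose and 3 fell, beside 30.2% and 28.6% of all tested genes. HSPA5 (BiP), a chaperone that binds unfolded proteins, was at 855, 846 and 855 CPM in DMSO and 2100, 2000 and 1410 CPM in panobinostat. Each panobinostat library stood above all DMSO libraries, and the log2 fold change was 1.11 ± 0.13 (edgeR adjusted p = 0.000906). CALR, the calreticulin of the loading complex, rose from 1230 ± 11.9 to 1880 ± 226 CPM (log2 fold change 0.61 ± 0.08). Its membrane-bound relative CANX fell slightly (-0.2 ± 0.06), as did the glucosidase subunit GANAB (-0.2 ± 0.05) and PDIA3, the ERp57 partner of tapasin (-0.15 ± 0.06). These 3 small falls lost their call in some cases. CANX had an edgeR adjusted p of 0.0511 to 0.063 without DMSO replicates 1 or 2 or panobinostat replicates 1 or 2. GANAB had 0.0568 without DMSO replicate 1 and 0.0521 without panobinostat replicate 2. PDIA3 had 0.0944 to 0.172 without any library but panobinostat replicate 4, and 0.0668 to 0.0974 with upper-quartile factors, library size only, no filter or DESeq2. TAPBPL, the tapasin relative TAPBPR that edits peptides outside the loading complex, had 3.3 ± 0.104 CPM in DMSO and 2.62 ± 0.186 CPM in panobinostat and was not called (-0.32 ± 0.2, edgeR adjusted p = 0.226).

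The immunoproteasome subunits PSMB8 and PSMB9, which shift cleavage towards class I ligands and are encoded in the MHC, had no row. The remaining subunit, PSMB10, was at 8.98, 10.4 and 11.8 CPM in DMSO and 5.46, 4.23 and 9.03 CPM in panobinostat, with panobinostat replicate 4 inside the DMSO range. It fell with a log2 fold change of -0.73 ± 0.26 (edgeR adjusted p = 0.0404), a call lost without any library but panobinostat replicate 4 (adjusted p 0.0647 to 0.143). The PA28 activator genes PSME1 (0.1 ± 0.07) and PSME2 (0.18 ± 0.07) were not called, and both were called higher without panobinostat replicate 4 (0.14 and 0.22) and with library quality weights (limma adjusted p 0.0164 and 0.000859), PSME2 also with upper-quartile factors or library size only (edgeR adjusted p 0.0493 and 0.0359). Of the 5 constitutive counterparts, 1 rose and 3 fell, beside 30.2% and 28.6% of all tested genes. The catalytic subunits PSMB5 (-0.43 ± 0.08), PSMB6 (-0.33 ± 0.09) and PSMB7 (-0.21 ± 0.06) fell. The activator PSME4 rose (0.29 ± 0.07), while PSME3 was not called (-0.07 ± 0.05). The call of PSMB6 was lost without DMSO replicate 1 (edgeR adjusted p = 0.0622), that of PSME4 without DMSO replicate 3 (0.0602), and that of PSMB7 without DMSO replicates 1 or 2 or panobinostat replicate 2 (0.051 to 0.0571). The within-library ratio of PSMB10 to PSMB7 had a log2 difference of -0.59 (two-sided exact permutation test, p = 0.2). Of 7 other peptidases that make or destroy class I ligands, 0 rose and 2 fell, beside the same shares of all tested genes. The 2 that fell were BLMH (-0.32 ± 0.08) and THOP1 (-0.2 ± 0.07). THOP1 lost its call without any library but panobinostat replicate 4 (edgeR adjusted p 0.0777 to 0.144) and with upper-quartile factors, library size only or DESeq2 (0.0537 to 0.0739). Without panobinostat replicate 4 the list had 3 higher and 3 lower, beside 74.6% of all tested genes called in either direction.

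Of the 14 transcription factors that act on class I promoters, 1 rose and 7 fell, with a median of -0.27, beside 30.2% of all tested genes higher and 28.6% lower. NLRC5, the class I transactivator, was at 31.1, 30.9 and 28.5 CPM in DMSO and 27.3, 30.5 and 31.3 CPM in panobinostat. The groups overlapped, with a log2 fold change of -0.03 ± 0.1 (edgeR adjusted p = 0.8). NFKB1, which encodes the p50 subunit that binds kappa B elements, was at 128, 120 and 121 CPM in DMSO and 35.1, 32 and 78.9 CPM in panobinostat. Each panobinostat library was lower, with a log2 fold change of -1.35 ± 0.3 (edgeR adjusted p = 0.00661), and the call was lost with no filter on low counts (adjusted p = 0.0966). ATF1, which binds the TGACG core, fell (-0.9 ± 0.18), as did the NF-Y subunit NFYC (-0.89 ± 0.23). IRF1, an activator at ISREs, fell with a log2 fold change of -0.32 ± 0.09, a call lost without DMSO replicates 2 or 3 or panobinostat replicate 1 (edgeR adjusted p 0.0576 to 0.0683).

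Of the 11 tested interferon receptor and signalling genes, 5 rose and 1 fell, beside the same 30.2% and 28.6% of all tested genes. STAT2, a signal carrier of the type I interferon receptor, was at 44.4, 44.1 and 44.4 CPM in DMSO and 101, 97.8 and 68.5 CPM in panobinostat. All panobinostat libraries were higher (log2 fold change 1.01 ± 0.14, edgeR adjusted p = 0.00149). The kinase gene JAK1 rose (0.54 ± 0.11), and the receptor chain gene IFNAR1 fell (-0.82 ± 0.15). IFNGR1, a chain of the interferon gamma receptor, rose with a log2 fold change of 0.42 ± 0.15, a call lost without any library but panobinostat replicate 4 (edgeR adjusted p 0.116 to 0.164) or with DESeq2 size factors (0.0512). Its partner IFNGR2, named after its values were seen, was at 6.69, 6.26 and 6.52 CPM in DMSO and 1.84, 1.1 and 13.5 CPM in panobinostat, low in replicates 1 and 2 and high in replicate 4. It was not called (-0.33 ± 0.74), and its log2 fold change was -2 without panobinostat replicate 4 (edgeR adjusted p = 2e-09). The number of genes called higher in this list was 2 without DMSO replicate 1 and 3 without DMSO replicates 2 or 3 or panobinostat replicates 1 or 2. Calls higher over all tested genes also fell in each of these fits. Without panobinostat replicate 4 the list had 6 higher and 5 lower, with IRF9 then also tested, beside 5171 and 5078 of 13746 tested genes.

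Of 11 genes of class I turnover and degradation, 3 rose and 4 fell, beside 30.2% and 28.6% of all tested genes. SYVN1, a ubiquitin ligase of the endoplasmic reticulum, rose (0.8 ± 0.13), and so did SUSD6 (0.73 ± 0.13) and TMEM127 (0.72 ± 0.11), whose products act together with WWP2 to remove class I molecules from the cell surface. WWP2 itself, a ubiquitin ligase, fell (-0.66 ± 0.12), so the parts of that complex did not move in 1 direction. UBE2J1, a ubiquitin conjugating enzyme for misfolded class I chains, fell (-0.81 ± 0.19), and TMEM129, another ligase of the endoplasmic reticulum, fell (-0.44 ± 0.09).

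Of 14 genes of the class II pathway, 7 had a row and 3 were tested. CIITA, the class II transactivator, was not called (-0.15 ± 0.12, edgeR adjusted p = 0.319), nor was CD74, the invariant chain (-0.04 ± 0.1, edgeR adjusted p = 0.763). CTSS, the protease that cleaves the invariant chain, fell from 11.6 ± 1.38 to 5.83 ± 1.75 CPM (log2 fold change -1 ± 0.21, edgeR adjusted p = 0.00563). The class II genes with a row that lie in the MHC, HLA-DRB1, HLA-DMA and HLA-DMB, had at most 5 counts in a library.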

How the data were processed

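The authors deposited a table of raw counts per gene, which its name attributes to featureCounts, for 6 RNA libraries made with a stranded mRNA kit, per the labels. The build named in the submitters' processing notes is GRCh38.p14, and FastQC is the tool named there. The aligner, the annotation, the strand setting and the treatment of reads with several matches are not stated in any source used here. GRCh38.p14 includes alternative sequences of the MHC, and whether they were aligned to is not given either. Their part in the low counts of that region was not tested. The same deposited table holds the authors' comparison, per the file headers a mean normalised signal, log2 fold changes with SE, a score that is their quotient, and p-values. No source used here names its tool, and values from it are named as the authors'. Counts and comparison were matched by gene identifier.

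Counts were tested with edgeR 4.0.16 in R 4.3.3 (quasi-likelihood, robust, TMM scaling, filterByExpr, treatment as the only term). The fit kept 13341 of 30051 genes, with Benjamini-Hochberg adjustment over all of them and a threshold of 0.05. The unadjusted p was under 0.05 for 8519 genes. Within-library ratios had exact permutation tests (scipy 1.17.1). The fit was tested on simulated data. Alternatives were other scalings and filters, DESeq2 1.42.0, limma 3.58.1 with and without library quality weights, a replicate block, and each library left out. Poisson intervals are 95% and, like the limits for a count of 0, cover counting error only. Positions and promoter windows are from RefSeq on GRCh38.p14, and transcript lengths and shared stretches from GENCODE 29.

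The members and lists were chosen with earlier results of these data known. The genes named are all members, up to 3 called genes in each direction of each list at a mean of at least 1 CPM, every tested gene of lists with 5 or fewer tested, and NLRC5, IRF1, CIITA, PSMB8, PSMB9 and PSMB10. Not every gene so chosen is reported here, though the list counts include all. For likeness, 3 genes with at least 10 CPM were named. IFNGR2, TAPBPL, LNPEP, IRF9, CD1D and the genes of the MHC stretch were named after their values were seen. Ratios of TAP1, PSMB8 and PSMB9 could not be computed, as these had no row.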

Additional observations from a re-analysis of the deposited data

Results flagged for a closer look

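The authors' deposited table has a column of summed counts that exceeds the 6 libraries used here, 76184320 counts against 52742848, so counts from further libraries, not analysed here, are in it. The part of that sum beyond the 6 libraries was 2465 counts for B2M, 2044 for ERAP1, 289 for ERAP2, 264 for HLA-B, 66 for HLA-C and 16 for HLA-E, all above the 3 counts that a count of 0 allows. No source used here gives the treatment of those libraries.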

How the results depend on the processing

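The members' calls, 0 higher and 2 lower, were the same under each of the 15 alternatives run. With each library left out in turn, the log2 fold change was -0.38 to -0.56 for ERAP1, -1.03 to -1.55 for ERAP2, -0.08 to -0.3 for HLA-B, -0.51 to 0.05 for HLA-C and 0.05 to 0.09 for B2M, and only that of HLA-C changed sign. Over the same settings the log2 difference of the ERAP1 to ERAP2 ratio was 0.67 to 0.92. Replicate numbers 1 and 2 occur in both groups, and the deviations of same-numbered libraries from their group means had correlations of 0.054 and 0.0084. Panobinostat replicate 4, which stood apart, enters those means, so the correlations cannot decide whether the numbers pair libraries. The main fit did not take the numbers to pair them. With the replicate block, which drops the unshared numbers from the treatment estimate, the log2 fold change was -0.53 for ERAP1, -1.54 for ERAP2, -0.12 for HLA-B, 0.02 for HLA-C and 0.09 for B2M. Pathway genes called higher, 15 in all, became 24 with the replicate block and 23 with library quality weights. Those called lower, 23 in all, became 31 and 29. Calls over all tested genes, 4032 higher and 3821 lower in the main fit, also rose in both directions under both settings. The gain is thus not read as particular to the pathway. Of the named genes not called, FCGRT, PSME1, PSME2, LNPEP and IFNGR2 were called with library quality weights (limma adjusted p 1.7e-06 to 0.0164) and with the replicate block (1.85e-13 to 0.0146). Leaving out a library gave 12 to 23 pathway genes higher and 14 to 31 lower, the most in both cases without panobinostat replicate 4. All tested genes likewise gave the most calls without that library, 5171 higher and 5078 lower. Without any other single library they gave fewer calls in each direction than in the main fit. The cause was not tested. Low counts limit HLA-C, and HLA-E, TAP2 and TAPBP could not be tested.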
